A study of Mus musculus with 6 samples.

Results

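The genes of fatty acid synthesis and desaturation were followed in hind leg muscle of exercised and control mice. They are 10 genes chosen by symbol, Scd1, Scd2, Fasn, Acaca, Acacb, Acly, Elovl6, Srebf1, Dgat2 and Mlxipl, and all 10 are among the 16759 genes of the deposited table. 9 of them had a mean of at least 1 FPKM (fragments scaled to transcript length and library size) over the libraries and were among the 10883 genes tested. The other, Elovl6, lay under this limit and is given from a fit with no limit.

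RNA was sequenced from the muscle of 3 control mice (Con) and 3 exercised mice (EX), with 1 library per mouse. All were male C57BL/6J mice aged 8 weeks when the experiment began, and no allele or drug separates the groups. EX mice covered 22 km on a treadmill in 6 weeks of training, in 5 weekly sessions that each lasted 60 min, and their muscle was taken 24 h after the final run. Con mice had no treadmill training. Mice were perfused with saline through the heart, and the fat between the muscles was removed before freezing. The sources do not say which hind leg muscles entered a library, and a library holds all cell types of the piece taken.

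In lipogenesis, ATP citrate lyase makes acetyl-CoA from citrate, acetyl-CoA carboxylase turns it into malonyl-CoA, and fatty acid synthase builds palmitate from both. Palmitate is lengthened by ELOVL6, desaturated to oleate and palmitoleate by stearoyl-CoA desaturases and joined to diacylglycerol by DGAT2 to form triglyceride. The transcription factors SREBP-1 (Srebf1), driven by insulin and sterol signals, and ChREBP (Mlxipl), driven by glucose metabolites, switch on these enzymes. In muscle, malonyl-CoA made by the mitochondrial carboxylase ACC2 (Acacb) is best known as the brake on entry of fatty acids into mitochondria.

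Promoters are shown for the 4 called genes with a listed promoter, so that the changes can be read beside the sequence around their starts. Each holds 300 bases, from 250 before the transcription start to 50 after it, taken from RefSeq on GRCm38.p6. RefSeq promoters were found for 7 of the 10 genes, and Scd1, Scd2 and Dgat2 had no entry. Capitals mark matches on either strand to CCAAT (reverse ATTGG), the box bound by NF-Y, to TCACCC (reverse GGGTGA), the core of a sterol regulatory element, to CACGTG, the E-box, and to GGGCGG (reverse CCGCCC), the GC box bound by Sp1. No motif contains another by its letters, CACGTG reads the same on both strands, and the motifs were chosen with the sequences at hand. For Srebf1 the most downstream of 3 listed starts is printed, from which the SREBP-1c form is known to arise, and for Mlxipl the upstream of 2, from which the ChREBP beta form is known to arise. The counts hold 1 value per gene, so the forms were not separated here.
Fasn, chr11:120824498-120824797, minus strand: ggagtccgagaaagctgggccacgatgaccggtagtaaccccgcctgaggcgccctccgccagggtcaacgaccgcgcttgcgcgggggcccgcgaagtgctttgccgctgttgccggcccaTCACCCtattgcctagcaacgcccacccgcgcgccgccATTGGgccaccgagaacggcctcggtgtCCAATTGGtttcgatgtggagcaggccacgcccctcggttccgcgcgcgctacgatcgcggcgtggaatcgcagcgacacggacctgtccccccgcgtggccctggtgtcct
Srebf1, chr11:60210422-60210721, minus strand: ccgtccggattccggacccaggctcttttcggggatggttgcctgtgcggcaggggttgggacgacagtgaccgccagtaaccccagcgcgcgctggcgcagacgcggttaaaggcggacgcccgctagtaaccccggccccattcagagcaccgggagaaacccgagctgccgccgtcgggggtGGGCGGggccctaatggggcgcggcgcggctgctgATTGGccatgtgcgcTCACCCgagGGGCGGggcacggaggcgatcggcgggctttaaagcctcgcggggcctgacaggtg
Mlxipl, chr5:135089640-135089939, plus strand: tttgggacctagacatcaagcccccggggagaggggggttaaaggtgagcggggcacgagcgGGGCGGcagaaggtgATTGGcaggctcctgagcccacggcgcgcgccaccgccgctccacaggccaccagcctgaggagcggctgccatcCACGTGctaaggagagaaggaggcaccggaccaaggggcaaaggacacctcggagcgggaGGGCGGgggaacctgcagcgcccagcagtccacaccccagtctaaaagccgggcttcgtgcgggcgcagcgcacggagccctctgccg
Acacb, chr5:114165268-114165567, plus strand: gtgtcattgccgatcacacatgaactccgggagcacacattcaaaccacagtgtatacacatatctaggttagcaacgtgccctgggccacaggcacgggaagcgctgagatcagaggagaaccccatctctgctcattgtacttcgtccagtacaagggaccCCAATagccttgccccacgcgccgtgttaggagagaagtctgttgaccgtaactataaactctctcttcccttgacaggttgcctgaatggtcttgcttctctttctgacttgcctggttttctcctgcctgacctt

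The Fasn promoter held 3 CCAAT boxes, whose first bases lay 90, 62 and 59 bases before the start, the last pair sharing bases, and a TCACCC 128 bases before it. The Srebf1 promoter held a CCAAT box 30 bases and a TCACCC 15 bases before the start, with GC boxes 65 and 6 bases before it. TCACCC was thus in 2 of the 10 promoters listed for the 7 genes, and in 16.22% of all 32851 RefSeq promoters of that length. The upstream starts of Srebf1 did not hold it. The Mlxipl promoter held an E-box 98 bases before the start, a motif found in 7.15% of all promoters, with GC boxes 188 and 38 bases and a CCAAT box 173 bases before it. The Acacb promoter held 1 CCAAT box, 87 bases before the start. CCAAT was in 37.41% and the GC box in 35.66% of all promoters. A match of letters is not a binding site, and no binding was measured.

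The 6 libraries held 13845362 to 16240431 estimated counts on genes, of which the 20 most abundant genes took 30.1% to 32.5%. A level of 3 counts, the most that a count of 0 allows, corresponded to 0.187 to 0.214 CPM (counts scaled to library size, TMM-adjusted), which covers counting error only. Muscle fibre markers summed to 188800 to 195240 CPM in Con and to 205340 to 214610 CPM in EX. No pair of libraries in a group agreed within counting noise, which by itself does not show that they came from separate mice. All 6 were counted as separate samples by their labels. The edgeR fit put the common variation between libraries, beyond counting error, at 0.033 (coefficient of variation). P-values rest on the spread between these libraries.

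The desaturases and fatty acid synthase rose with exercise together with Srebf1, whereas Acacb and Mlxipl fell and Acly and Acaca did not pass the test. Of the 9 genes tested, 4 were higher in EX (Scd1, Scd2, Fasn and Srebf1) and 2 lower (Acacb and Mlxipl) by edgeR at an adjusted p under 0.05, and 3 were not called (Acaca, Acly and Dgat2). Over all genes tested, 17.9% were called, 9.11% higher and 8.80% lower. The Con and EX ranges of CPM did not overlap for 7 of the 9, against 33.7% of all genes tested. The median log2 fold change of the 9 was -0.01, and that of all genes tested was -0.00. In whole muscle, a change in the number of cells of a type and a change in RNA per cell cannot be told apart.

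**Figure D1:**
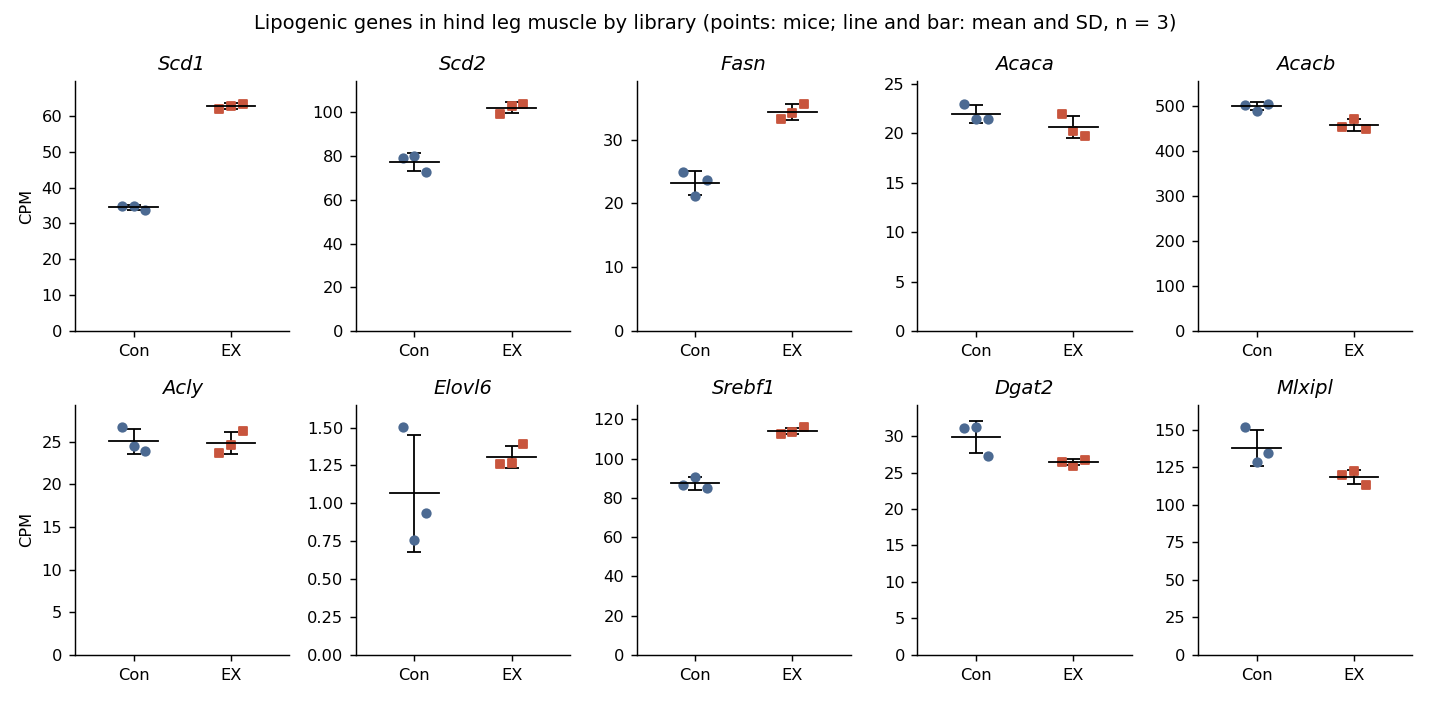
CPM of each of the 10 genes (vertical axis, from 0, a separate scale for each gene) in the 3 Con mice (blue circles) and 3 EX mice (red squares), with the group mean as a line and the SD as a bar. Scd1 shows the widest separation, 33.7 to 34.9 CPM in Con against 61.8 to 63.3 CPM in EX, and Acaca, Acly and Elovl6 overlap between groups.

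Scd1 encodes the stearoyl-CoA desaturase best known in liver and fat, which places a double bond in stearate and palmitate. Its level was 34.9, 34.8 and 33.7 CPM in the Con mice and 61.8, 62.8 and 63.3 CPM in the EX mice. Every EX mouse lay at least 26.8 CPM above every Con mouse, and the CPM within a group varied by 2.01% in Con and 1.26% in EX (coefficient of variation). Counts were 489 to 549 in Con and 983 to 1001 in EX, for which counting error alone is larger. These 2 spreads therefore do not measure how alike the mice were. Scd1 rose 1.82-fold, a log2 fold change of 0.86 ± 0.050 (SE, n = 3 per group), with an edgeR adjusted p of 4.1e-13. This was the largest change of the 10 genes, and 98 of the 10883 genes tested, Scd1 included, had a log2 fold change at least as large in either direction.

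Scd2, the paralogous desaturase known from brain and from many other tissues, was at 79.2, 80.1 and 72.8 CPM in Con and at 99.2, 102.9 and 103.9 CPM in EX. The groups did not overlap, and the lowest EX mouse was 19.1 CPM above the highest Con mouse. Scd2 rose 1.32-fold (log2 fold change 0.40 ± 0.046 SE, n = 3 per group, edgeR adjusted p = 3.1e-07). Per transcript length Scd2 stayed above Scd1 in both groups, at 15.4 ± 0.70 FPKM against 7.79 ± 0.095 FPKM in Con and 19.5 ± 0.39 FPKM against 13.6 ± 0.15 FPKM in EX (mean ± SD, n = 3). The FPKM ratio of Scd1 to Scd2 was 0.501, 0.493 and 0.526 in the Con mice and 0.708, 0.693 and 0.692 in the EX mice. It was thus higher in all EX mice than in any Con mouse, a difference of 0.46 in log2 ratio. Its exact permutation p was 0.1 (two-sided), the smallest that 3 against 3 mice can give, and 0.117 after adjustment over 7 ratios. The other desaturases of the family, Scd3 and Scd4, had at most 1 and 3 counts in any library. Scd1 and Scd2 are similar in sequence, and how reads matching both were assigned is not given in the sources used here.

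Fatty acid synthase, the multifunctional enzyme encoded by Fasn, was at 24.9, 21.2 and 23.6 CPM in Con and 33.2, 34.2 and 35.6 CPM in EX. The lowest EX mouse was 8.24 CPM above the highest Con mouse. Fasn rose 1.48-fold (log2 fold change 0.57 ± 0.066 SE, n = 3 per group, edgeR adjusted p = 3.5e-07), and 268 genes tested, Fasn included, had a log2 fold change at least as large in either direction. Per length it was among the lowest of the 10 genes, at 2.62 ± 0.20 FPKM in Con and 3.69 ± 0.14 FPKM in EX.

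Acly and Acaca, which act before fatty acid synthase, did not pass the test. Acly, the cytosolic enzyme that splits citrate into acetyl-CoA and oxaloacetate, was at 26.6, 24.5 and 23.9 CPM in Con and 23.7, 24.5 and 26.2 CPM in EX. The groups overlapped over nearly their whole range. Its log2 fold change was -0.01, with a 95% interval of -0.15 to 0.13 and an edgeR adjusted p of 0.95, and leaving out Con mouse 1, EX mouse 1 or EX mouse 2 turned its sign. Acaca, the cytosolic acetyl-CoA carboxylase ACC1 that supplies malonyl-CoA for synthesis, was at 23.0, 21.4 and 21.5 CPM in Con and 21.9, 20.2 and 19.8 CPM in EX. EX mouse 1 lay within the Con range and the other EX mice below it. Its log2 fold change was -0.09, with a 95% interval of -0.23 to 0.06 and an edgeR adjusted p of 0.43, and it was -0.13 without EX mouse 1 and -0.06 without EX mouse 3.

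Fasn was also set against Acly and Acaca within each library, where library size cancels. The FPKM ratio of Fasn to Acly was 0.422, 0.392 and 0.447 in Con and 0.623, 0.628 and 0.609 in EX, and that of Fasn to Acaca was 1.07, 0.964 and 1.08 in Con and 1.48, 1.65 and 1.72 in EX. Both ratios were higher in all 3 EX mice than in any Con mouse. The log2 differences were 0.56 and 0.64, each with an exact permutation p of 0.1, the smallest possible, and 0.117 after adjustment over the 7 ratios.

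Acacb was the most abundant of the 10 genes per length, at 61.1 ± 1.1 FPKM in Con and 54.4 ± 1.1 FPKM in EX (mean ± SD, n = 3). It encodes ACC2, the carboxylase at the outer mitochondrial membrane. Its level was 504.0, 489.6 and 505.8 CPM in Con and 454.3, 473.0 and 449.0 CPM in EX. All EX mice were lower than all Con mice, with a gap of 16.7 CPM. Acacb fell by 0.12 on the log2 scale (SE 0.035, 95% interval -0.20 to -0.05, n = 3 per group), with an edgeR adjusted p of 0.013. The call was lost without EX mouse 1 (edgeR adjusted p = 0.052) and without EX mouse 3 (edgeR adjusted p = 0.11). The FPKM ratio of Acacb to Acaca was 24.1 ± 0.74 in Con and 23.8 ± 1.3 in EX, and the groups overlapped (exact permutation p = 0.7, n = 3 per group).

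Elovl6, the elongase that lengthens palmitate to stearate, had 21, 12 and 15 counts in the Con libraries and 20, 20 and 22 counts in the EX libraries. All EX libraries lay within the Con range in CPM, which was 0.76 to 1.5 CPM in Con and 1.3 to 1.4 CPM in EX. In the fit without a limit on low genes its log2 fold change was 0.31, with a 95% interval of -0.26 to 0.88 and an edgeR adjusted p of 0.57. At 12 to 22 counts per library the interval includes no change as well as changes as large as those of Scd2 and Fasn. The FPKM ratio of Scd1 to Elovl6 was 29.0, 56.1 and 45.2 in Con and 61.5, 61.4 and 57.4 in EX. The groups did not overlap, with a log2 difference of 0.52 (0.25 without Con mouse 1) and an exact permutation p of 0.1, the smallest possible, or 0.117 after adjustment over the 7 ratios.

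Dgat2, which adds the last fatty acid to triglyceride, was at 31.1, 31.2 and 27.3 CPM in Con and 26.4, 25.9 and 26.8 CPM in EX. Every EX mouse was lower than every Con mouse, but Con mouse 3 was only 0.543 CPM above the highest EX mouse. Its log2 fold change was -0.18 ± 0.065 (SE, n = 3 per group), and its edgeR adjusted p of 0.060 missed the threshold. The 95% interval was -0.31 to -0.04. Without Con mouse 3 Dgat2 passed the test (log2 fold change -0.24, edgeR adjusted p = 0.015), and it also passed when only genes of at least 5 FPKM were tested (edgeR adjusted p = 0.043) or in limma on FPKM and TPM values, which are not scaled by TMM (log2 fold change -0.27 to -0.22, adjusted p of 0.018 to 0.033). DESeq2 did not call it (adjusted p = 0.22). Dgat1, which encodes the unrelated enzyme of the same reaction, had a log2 fold change of 0.10 (edgeR adjusted p = 0.55). The FPKM ratio of Dgat2 to Dgat1 was 2.46 ± 0.24 in Con and 2.0 ± 0.26 in EX (mean ± SD, n = 3), with no overlap and an exact permutation p of 0.1, the smallest possible (0.117 after adjustment over the 7 ratios). The difference in log2 ratio was -0.30, and it was -0.20 without EX mouse 3.

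**Figure D2:**
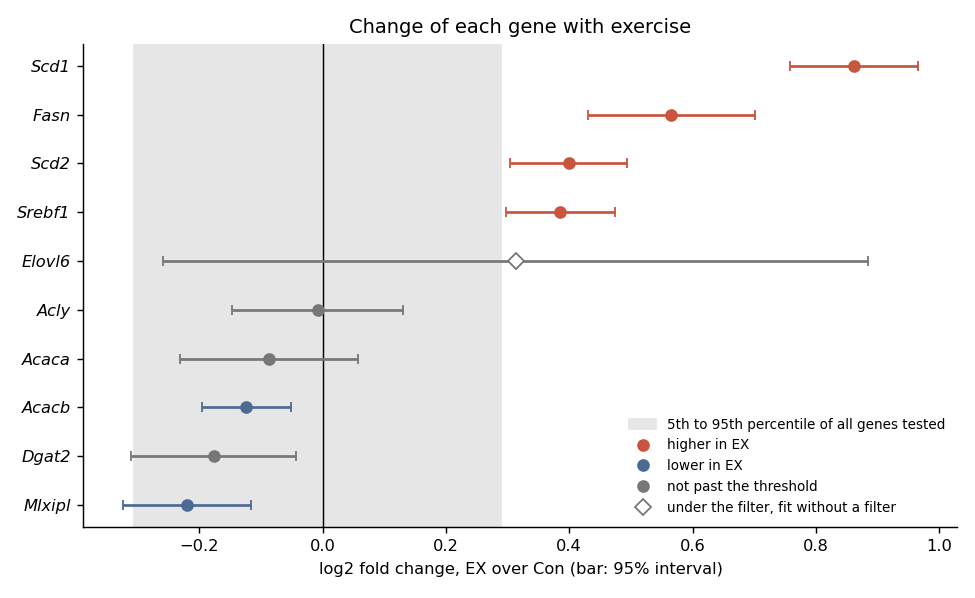
Log2 fold change of EX over Con (horizontal axis) for each gene, with its 95% interval as a bar and colour for the edgeR call. The grey band spans the 5th to 95th percentile of all genes tested, from -0.31 to 0.29, and Scd1, Fasn, Scd2 and Srebf1 lie above it, as does the uncalled Elovl6 at 0.31 with the widest interval, while Acly, Acaca, Acacb, Dgat2 and Mlxipl lie inside it.

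The transcription factors moved in opposite directions. Srebf1 was at 86.3, 90.7 and 84.8 CPM in Con and 112.7, 113.6 and 115.8 CPM in EX. The lowest EX mouse was 22.0 CPM above the highest Con mouse, and Srebf1 rose 1.31-fold (log2 fold change 0.39 ± 0.043 SE, n = 3 per group, edgeR adjusted p = 1.7e-07). Mlxipl was at 151.4, 128.2 and 134.5 CPM in Con and 119.6, 122.6 and 113.0 CPM in EX. The groups did not overlap, and Con mouse 1 stood highest. Mlxipl fell by 0.22 on the log2 scale (SE 0.050, n = 3 per group, edgeR adjusted p = 0.0024).

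The FPKM ratio of Mlxipl to Srebf1 was 1.96, 1.58 and 1.76 in the Con mice and 1.19, 1.2 and 1.07 in the EX mice. Mlxipl thus stayed the more abundant per length in all 6 mice, by a narrower margin in each EX mouse. The difference in log2 ratio was -0.61, with an exact permutation p of 0.1, the smallest possible, and 0.117 after adjustment over the 7 ratios.

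**Figure D3:**
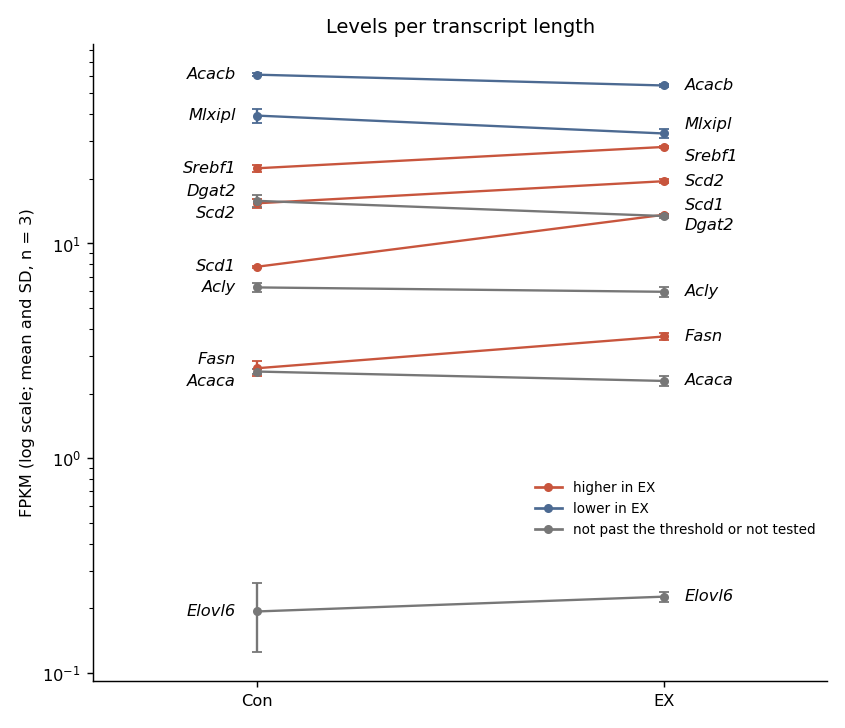
Mean FPKM of each gene in Con and EX (vertical log axis), with the SD over 3 mice as a bar and the colour of the line giving the edgeR call. Scd1 moves from below Dgat2 and Scd2 in Con, at 7.79 FPKM, to the level of Dgat2 in EX, at 13.6 against 13.4 FPKM.

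In FPKM, which allows levels of different genes to be set side by side, the order in Con was Acacb, Mlxipl, Srebf1, Dgat2, Scd2, Scd1, Acly, Fasn, Acaca and Elovl6. Neighbours in this order overlapped between mice for Dgat2 and Scd2 (15.8 against 15.4 FPKM) and for Fasn and Acaca (2.62 against 2.53 FPKM), and the other neighbours did not. In EX, Scd2 and Scd1 were listed above Dgat2, and Scd1 and Dgat2 were the sole neighbours that overlapped, at 13.6 and 13.4 FPKM. Fasn and Acaca, which overlapped in Con, were apart in EX at 3.69 ± 0.14 and 2.29 ± 0.11 FPKM (mean ± SD, n = 3). From the most to the least abundant, FPKM spanned 61.1 to 0.193 in Con and 54.4 to 0.227 in EX.

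The genes around the 10 were taken by pathway, from lists chosen with earlier results known. Over the 6 lists, 13 of 86 genes tested were called, 15.1% against 17.9% of all genes tested. Among 9 genes that supply acetyl-CoA and NADPH, 2 were higher and 2 lower, with a median log2 fold change of 0.14. Mid1ip1, a protein that promotes polymerisation of acetyl-CoA carboxylase, rose by 0.43 on the log2 scale (edgeR adjusted p = 3.2e-07), and Me1, the cytosolic malic enzyme that makes NADPH, rose by 0.14 (edgeR adjusted p = 0.0042) but was not called by limma on FPKM or TPM values, where its log2 fold change was 0.05 to 0.09 (adjusted p of 0.14 to 0.34). Idh2, the mitochondrial NADP-dependent isocitrate dehydrogenase, fell by 0.61 on the log2 scale, from 154 ± 3.8 to 101 ± 3.6 CPM (mean ± SD, n = 3, edgeR adjusted p = 1.8e-11). Acss2, which makes acetyl-CoA from acetate, fell by 0.21 on the log2 scale (edgeR adjusted p = 0.0081).

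Among 12 tested of 19 other elongases, desaturases and their partners, 2 were higher and 0 lower, with a median log2 fold change of -0.04. These were Tecr, the enoyl reductase that completes each elongation cycle, with a log2 fold change of 0.35 (edgeR adjusted p = 6.2e-08), and Hacd1, a dehydratase of the same cycle that is prominent in muscle, with 0.17 (edgeR adjusted p = 0.014). The call of Hacd1 was lost without Con mouse 3 (edgeR adjusted p = 0.099) and without EX mouse 3 (edgeR adjusted p = 0.051), with DESeq2 (adjusted p = 0.055) and in limma on FPKM and TPM values, where its log2 fold change was 0.08 to 0.11 (adjusted p of 0.099 to 0.23). With no limit on low genes, 1 gene of the list was called lower, Elovl3 (log2 fold change -2.20, edgeR adjusted p = 0.045), at 0 to 8 counts per library. Among 12 tested of 15 genes of triglyceride assembly, 0 were higher and 1 lower, with a median log2 fold change of -0.03. The gene was Gpam, the mitochondrial acyltransferase that starts glycerolipid synthesis, which fell by 0.25 on the log2 scale (edgeR adjusted p = 1.1e-05). The number called lower in that list was 2 without Con mouse 1, Con mouse 2 or EX mouse 2, and at most 3 over the alternatives tried.

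Among 17 genes that control SREBP, LXR and ChREBP, 0 were higher and 2 lower, with a median log2 fold change of -0.07. Nr1h3, which encodes the oxysterol receptor LXR alpha, had a log2 fold change of -0.30 (edgeR adjusted p = 0.011), and Mbtps1, the site-1 protease that cuts SREBPs in the Golgi, had -0.14 (edgeR adjusted p = 0.039). DESeq2 called neither (adjusted p of 0.073 and 0.16), and Mbtps1 was also lost without Con mouse 2 or any 1 of the EX mice (edgeR adjusted p of 0.063 to 0.15) and with no limit on low genes (edgeR adjusted p = 0.058). The number called lower in the list was 3 without Con mouse 3 and 4 in limma on log2(TPM + 0.1). Among 15 genes of malonyl-CoA use and of AMP-activated protein kinase, which inactivates the carboxylases, 2 were higher and 0 lower, with a median of -0.02. Both were subunits of the kinase, Prkag3 with a log2 fold change of 0.33 (edgeR adjusted p = 3.8e-07) and Prkab2 with 0.21 (edgeR adjusted p = 1.9e-04). Prkab2 was not called by limma on FPKM or TPM values, where its log2 fold change was 0.12 to 0.15 (adjusted p of 0.068 to 0.12).

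Cholesterol synthesis, whose genes are known targets of SREBP-2, was the last list. Of 21 tested of 23 listed, 1 was higher and 1 lower, with a median log2 fold change of 0.08. Hsd17b7, a ketoreductase of the pathway, had a log2 fold change of 0.41 at 10.7 ± 1.2 CPM in Con (edgeR adjusted p = 0.0020), and Fdft1, squalene synthase, had -0.18 (edgeR adjusted p = 0.017). The call of Hsd17b7 was lost in limma on FPKM and TPM values, where its log2 fold change was 0.26 to 0.34 (adjusted p of 0.059 to 0.068). That of Fdft1 was lost without Con mouse 1, EX mouse 1 or EX mouse 3 (edgeR adjusted p of 0.051 to 0.088). Its log2 fold change was then -0.12, -0.16 and -0.19, in that order. Without EX mouse 2 the number called higher was 2.

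**Figure D4:**
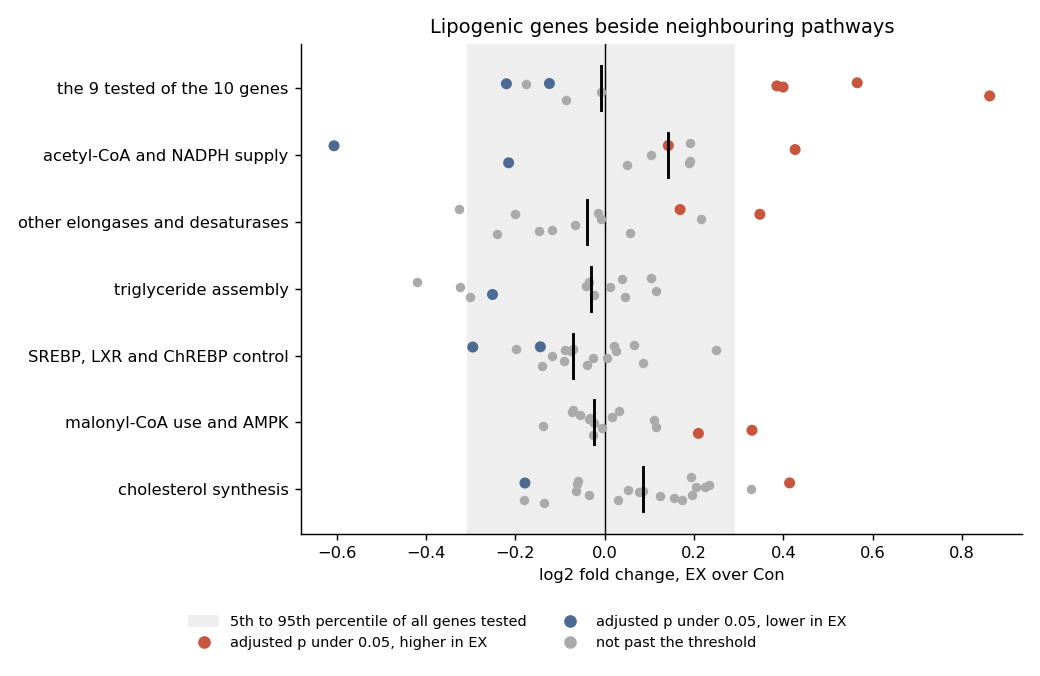
Log2 fold change of EX over Con (horizontal axis) for each tested gene of the 6 neighbouring pathways and of the 10 genes, where coloured points passed edgeR at an adjusted p under 0.05, black lines mark each list's median and the grey band spans the 5th to 95th percentile of all genes. Medians lie between -0.07 and 0.14, and Scd1, at 0.86, is the highest point shown.

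Markers of other cell types moved between the groups as well. Adipoq, the fat cell hormone adiponectin, was at 1.43 ± 0.35 CPM in Con and 3.30 ± 0.43 CPM in EX (mean ± SD, n = 3, log2 fold change 1.19, edgeR adjusted p = 1.3e-04). Cfd, the fat cell protease adipsin, was at 10.2 ± 0.49 CPM in Con and 25.0 ± 1.4 CPM in EX (log2 fold change 1.29, edgeR adjusted p = 1.5e-12). Plin1, the coat protein of fat cell lipid droplets, was at 0.651 ± 0.37 CPM in Con and 1.47 ± 0.39 CPM in EX, under the limit for low genes. Adipoq, Cfd and Plin1 were higher in each EX mouse than in any Con mouse, as were Scd1, Scd2, Fasn and Srebf1. For Plin1 the gap was only 0.059 CPM, with 15 counts in Con mouse 1 and 18 counts in EX mouse 1. Lpl, the lipoprotein lipase that muscle fibres also make, fell by 0.40 on the log2 scale (edgeR adjusted p = 1.3e-08), and 2 further genes of the fat cell list were not called, Fabp4 with a log2 fold change of -0.09 and Lipe with -0.03.

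Of the 14 fat cell markers listed, 9 were tested, 6 were higher and 1 lower, with a median log2 fold change of 0.82, and none was at 0 in all libraries while Ucp1 was not in the table. Their summed level was 1144 to 1195 CPM in Con and 1149 to 1153 CPM in EX, most of it from Lpl, Plin4, Fabp4 and Lipe. Without those 4 genes, a choice made after their values were seen, the sum was 17.4 to 19.4 CPM in Con and 41.2 to 45.7 CPM in EX. The mean level of Scd1 differed by 28.2 CPM, of Scd2 by 24.6 CPM, of Fasn by 11.1 CPM and of Srebf1 by 26.8 CPM. The differences were 1.88 CPM for Adipoq, 14.8 CPM for Cfd and 0.824 CPM for Plin1. Levels within fat cells were not measured, and the part of fat cell RNA in the rise of Scd1, Scd2, Fasn and Srebf1 was not tested.

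Schwann cell markers, whose cells make myelin lipids, went the other way. Of 6 tested, 0 were higher and 4 lower, and their sum was 117 to 131 CPM in Con and 88.9 to 92.8 CPM in EX. Macrophage markers summed to 42.5 to 47.5 CPM in Con and 74.0 to 79.9 CPM in EX, with 5 of 6 tested higher, and fibroblast markers to 927 to 960 CPM and 1258 to 1262 CPM, with 3 of 8 higher. Those 3 were the collagens Col1a1, Col1a2 and Col3a1, whose means differed by 70.6, 92.3 and 166 CPM, and the other 5 were not called, with log2 fold changes of -0.14 for Pdgfra to 0.22 for Pi16. Endothelial markers summed to 714 to 732 CPM in Con and 630 to 648 CPM in EX, with 1 of 8 higher and 4 lower. Hepatocyte markers, from a tissue that was not sampled, summed to 108 to 110 CPM in Con and 59.1 to 65.7 CPM in EX, with 7 of 8 lower. The part of these cells in the changes of the 10 genes was not tested.

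**Figure D5:**
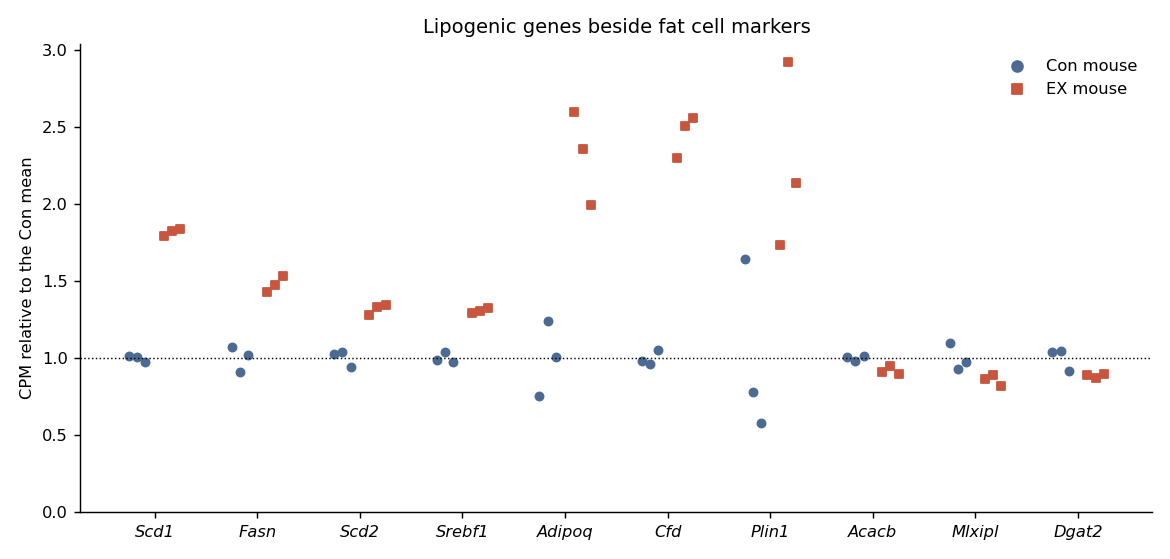
CPM of 7 of the 10 genes and of the fat cell markers Adipoq, Cfd and Plin1 in each mouse, divided by the Con mean (vertical axis, from 0, dotted line at 1). EX mice lie at 1.79 to 1.84 for Scd1 and at 1.99 to 2.60 for Adipoq.

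The genes whose pattern over the 6 libraries was most like that of Scd1 were sought among 9617 other tested genes with a mean of at least 5 CPM, by Pearson's r of log2 CPM. The 5 with the highest r were Atp2a2, a calcium pump of slow and cardiac muscle (r = 0.9993), Smox, spermine oxidase (0.9991), Col1a1, a chain of type I collagen (0.9984), Nmrk2, a nicotinamide riboside kinase (0.9981), and Actc1, cardiac actin (0.9978). In all 52 genes had r of at least 0.99. With 3 mice in each of 2 groups, r is set chiefly by the difference between the groups and is given as a description.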

How the data were processed

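RNA sequencing of hind leg muscle from 3 Con and 3 EX mice was used, with groups taken from the sample labels. The authors sequenced paired-end libraries on the DNBseq platform and removed low-quality reads. Their methods give HISAT and GRCm39 for alignment and DESeq for testing, whereas the submitters' processing notes list cutadapt, featureCounts, MultiQC and GRCm38.p6, so the build behind the counts is uncertain. One deposited table gives, per gene and library, the estimated count and the FPKM and TPM values that the authors derived from it, and 4.18% to 4.44% of the estimated counts per library were not whole numbers, none of them for the 10 genes. The 6 columns of group means were not used.

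Estimated counts were rounded, scaled by TMM and tested with edgeR 4.0.16 (glmQLFit, glmQLFTest, group as the only term) in R 4.3.3 on genes whose FPKM averaged 1 or more. P-values were adjusted by Benjamini-Hochberg over the 10883 genes tested, with a threshold of 0.05. CPM are TMM-scaled. Ratios between genes were formed from FPKM within a library and compared by exact permutation tests. The edgeR, DESeq2 and limma fits were checked on simulated counts with known changes. Alternatives were RLE scaling, totals without the 20 most abundant genes, no filter, a filter of 5 FPKM, DESeq2 1.42.0, limma 3.58.1 on log2(FPKM + 0.1), log2(FPKM + 1) and log2(TPM + 0.1), a replicate block and leaving out each library.

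The 10 genes, the pathway and marker lists and the motifs were chosen with earlier results of these data known. Named genes are all 10, up to 4 called genes per direction from each pathway list, the markers Adipoq, Plin1 and Cfd, and the 5 genes most like Scd1. Dgat1, Scd3, Scd4, Elovl3 and the abundant fat cell genes were named after their values were seen. One further marker gene fixed for naming is not reported here.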

Additional observations from a re-analysis of the deposited data

How the results depend on the processing

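Scd1, Scd2, Fasn, Srebf1 and Mlxipl kept their direction and their call in every alternative in which they were tested, with log2 fold changes of 0.73 to 0.87, 0.31 to 0.42, 0.37 to 0.61, 0.29 to 0.41 and -0.31 to -0.15, and Fasn was not tested at a minimum of 5 FPKM. Of the 10 genes, 4 were called higher in all alternatives but the 5 FPKM minimum, which left 3. The number called lower was 1 to 3 when single mice were left out, 1 without EX mouse 1 or EX mouse 3 and 3 without Con mouse 3, and it was also 3 wherever Dgat2 passed. Acacb ran from -0.20 to -0.11 and Acaca from -0.18 to -0.06. Dgat2 also passed with totals that leave out the 20 most abundant genes (-0.20, adjusted p = 0.030). Acly was 0.033 without Con mouse 1, 0.025 without EX mouse 1 and 4.5e-05 without EX mouse 2, and ranged from -0.10 to 0.033 over all alternatives. The log2 ratio of Acacb to Acaca differed by 0.0017 without Con mouse 3 and 0.021 without EX mouse 1, with a range of -0.058 to 0.021.

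Over all genes, 991 were called higher and 958 lower, 50.9% of the calls being higher. DESeq2 called 643 higher and 585 lower. limma called 411 higher on log2(FPKM + 0.1), 411 on log2(FPKM + 1) and 340 on log2(TPM + 0.1), with 1684 lower on TPM, so that 28.4%, 28.5% and 16.8% of calls were higher. Totals without the 20 most abundant genes gave 772 higher and 1259 lower, 38.0% higher. The cause was not tested. When single mice were left out, 667 to 934 were called higher and 677 to 923 lower.

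Samples with the same replicate number did not deviate together over all genes (correlations of -0.079, -0.050 and -0.012). No pairing by number was seen, though a pairing that touches few genes would not show in these values. With a replicate block 909 genes were higher and 873 lower, and 4 of the 10 genes were higher and 2 lower, as without it. Log2 fold changes with the replicate block were 0.86 for Scd1, 0.40 for Scd2 and 0.57 for Fasn. The block changed no call of the 10 genes. Among the pathway genes named it took the call of Mbtps1 (edgeR adjusted p = 0.059), and it raised the number of triglyceride assembly genes called lower to 2. The call of Acacb depended on single mice and that of Dgat2 on a single mouse, the filter and the scaling. Elovl6 had 12 to 22 counts per library.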
